A study of Saccharomyces cerevisiae with 24 samples.

Results

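The 33 genes described here take sulfate into the cell of the yeast Saccharomyces cerevisiae, reduce it, build cysteine and methionine from it, make S-adenosylmethionine (SAM) from methionine, import methionine and its relatives, and regulate the others. They were chosen by gene identifier, with earlier results of these data known, out of 6814 genes in the joined count tables. Shares of called genes among them are therefore set beside those of all genes as a description. The 33 genes were followed across 8 groups of 3 RNA-seq libraries. Each group is 1 of 2 strains in 1 of 4 media. Both strains derive from GA74-1A, and the labels name them psd2deltapsd1delta::Psd1-3XFLAG and psd2deltapsd1delta::Psd1-LGS/AAA, so both lack their own PSD2 gene and carry PSD1 as a construct in place of their own. The control (WT) carries a working Psd1 with a 3XFLAG tag, from a construct made in the plasmid pRS305. The mutant (LG) carries Psd1 with its LGS motif changed to AAA, which blocks its self-cleavage, and per the labels does not rescue the ethanolamine auxotrophy. Psd1, phosphatidylserine decarboxylase, makes phosphatidylethanolamine (PE) in the mitochondrial inner membrane, and the self-cleavage activates it. WTD and LGD grew in plain YPD, a rich medium, WTE and LGE in YPD with 2 mM ethanolamine, and WTC and LGC in YPD with 2 mM choline. WTL and LGL grew in YPD with lyso-phosphatidylethanolamine (lyso-PE) at 0.5 mM and the detergent tergitol at 1%. The labels give no allele or agent beyond these, and do not say whether a strain is 1 clone. They also do not say whether the 3 replicates of a group came from separate cultures, so the p-values measure the spread between these libraries, which may be technical.

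In yeast, sulfate is activated with ATP, reduced to sulfite and then to sulfide, and sulfide is joined to O-acetylhomoserine to give homocysteine. Homocysteine is methylated to methionine or exchanged with cysteine through cystathionine, and methionine is turned into SAM, the methyl donor of the cell. The methylation of PE to phosphatidylcholine by Cho2 and Opi3 is a large consumer of SAM and returns homocysteine through Sah1. Transcription of most of these genes is driven by the activator Met4, which does not bind DNA by itself and is brought to promoters by Cbf1 with Met28 and by Met31 or Met32. The ubiquitin ligase subunit Met30 restrains Met4 when sulfur amino acids are plentiful.

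Levels are given in CPM, the usual library-size-scaled unit of read counts, with library sizes adjusted by TMM, and differences as log2 fold changes with a standard error (SE). A gene was called when its p from edgeR's quasi-likelihood test, adjusted over all genes tested by the Benjamini-Hochberg method, was under 0.05. Library totals ran from 16044470 to 20946936 counts, of which the 33 genes took 0.507% to 0.844%. In every group replicates 1 and 2 were closer to each other than to replicate 3. Across genes, which are not independent replicates, log2 CPM of replicates 1 and 2 correlated at 0.9953 to 0.9977, and either of them with replicate 3 at 0.9559 to 0.9921. The chi-square of their counts, which counting noise alone would put near 1 per gene, was 2.65 to 17.2 per gene for replicates 1 and 2 and 86.4 to 316 when replicate 3 was in the pair. Counts of calls are therefore also given with replicates 1 and 2 summed into 1 library. The altered gene itself, PSD1, had 862 ± 26.8 CPM in WTD and 549.9 ± 131 CPM in LGD (SD, n = 3), a log2 difference of -0.67 ± 0.18 (adjusted p 0.0257). It was not called in 5 of 6 leave-one-out fits, with an adjusted p of up to 0.0941 without LGD replicate 2, and the counts do not tell the alleles apart. In the control, PSD1 was lower in the other media, with means of 599 (WTE), 633 (WTL) and 610 (WTC) CPM. Those of the mutant were 471 (LGE), 537 (LGL) and 594 (LGC) CPM. PSD1 was not called between the strains in ethanolamine (-0.36 ± 0.20, adjusted p 0.41) or in the lyso-PE medium (-0.22 ± 0.17, adjusted p 0.481).

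The upstream DNA of the 33 genes is shown first, since their regulators have known binding words. In the 500 bases before the start codon, read from the R64 genome of RefSeq, the Cbf1 word CACGTG stood in 22 of the 33 genes (66.7%), against 6.2% of 5846 protein-coding genes with a window of that length. The words AACTGTG and TGTGGC, taken for Met31 and Met32 and partly overlapping each other where both occur in the run AACTGTG plus GC, stood in 17 (51.5%, against 6.0%) and in 22 (66.7%, against 14.2%). CACGTG together with either of these was found in 19 genes (57.6%) and in 1.5% of all windows. TGACTC, the word of the amino acid starvation activator Gcn4, was found in 11 (33.3%, against 12.9%). Both strands were searched and a match is a description of letters, not of binding. One word each is shown for 6 genes whose transcript levels moved most or stand for their step of the pathway, as 30 bases on the gene's own strand from 5′ to 3′ with the matched word, or its reverse complement, in capitals.
SUL2: tggagtaaatgtCACGTGccactgtggccg
MET3: agaaaaaaaggtCACGTGaccagaaaagtc
MET16: ttatcatcatttCACGTGgctagtaaaaga
STR3: gttttccgtggcGCCACAgtccgcgtttgg
MET6: cccggtcgcaaAACTGTGgtagtcatagct
MUP1: taataaactgcCACAGTTgactcaagcggt
The first base of the capitals lay before the start codon by 334 bases in SUL2 (chrXII:323198-323227, plus strand), 377 bases in MET3 (chrX:455850-455879, plus strand), 178 bases in MET16 (chrXVI:877793-877822, minus strand), 416 bases in STR3 (chrVII:156411-156440, minus strand), 306 bases in MET6 (chrV:342455-342484, minus strand) and 278 bases in MUP1 (chrVII:599128-599157, plus strand). SUL2, MET3, MET16 and MET6 hold the Cbf1 word and a Met31/Met32 word. STR3 and MUP1 hold no CACGTG, with 5 TGTGGC words in STR3 and 2 each of AACTGTG and TGTGGC in MUP1.

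MHT1 and MMP1 are neighbours on chromosome XII that are transcribed away from each other, with 342 bases between their start codons. They therefore share 1 stretch of upstream DNA, and 1 AACTGTG word of it is shown here, in capitals, on the strand of MHT1 (chrXII:17773-17802, minus strand) and as its reverse complement on the strand of MMP1 (chrXII:17774-17803, plus strand).
MHT1: ggaaaagtaaaAACTGTGgcatgaaagtac
MMP1: tactttcatgcCACAGTTtttacttttcca
The Met31/Met32 words of MHT1 and MMP1 are the same DNA, and were counted for each of these genes in the shares above. In plain YPD, MHT1 rose and MMP1 fell in the mutant.

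Compared per kilobase of gene, over all 24 libraries, the most abundant transcripts of the set were those of SAH1, the hydrolase of S-adenosylhomocysteine (953 CPM per kb), CYS3, cystathionine gamma-lyase (695), MET17, which joins sulfide to O-acetylhomoserine (479), and CYS4, cystathionine beta-synthase (449). The SAM synthetase genes SAM1 (378) and SAM2 (344) and the SAM permease gene SAM3 (206) followed in CPM per kb. At the low end were SUL1 (11.9 CPM per kb) and MET28 (0.894). MET28 had 1 to 29 reads in a library and is overlapped by the opposite-strand gene YIR017W-A over 554 bases, so its values are uncertain, and it was not tested in 3 comparisons. MET2 overlaps YNL276C on the opposite strand by 379 bases, and whether the counting used strand is not given in the sources used here. SAM1 and SAM2 are near-identical copies in places: 1.82% and 1.81% of their 50-base windows occur elsewhere in the genome, and reads there could be split between them. No such window was found in the other 31 genes. STR3, the peroxisomal cystathionine beta-lyase, had the widest range among the genes other than MET28, 19.2-fold from 6.85 to 131 CPM, and MET12 the narrowest, 1.53-fold from 122 to 187 CPM.

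Of the 33 genes, 20 had their highest group mean in WTD (60.6%), as did 16.7% of 6322 genes. These 20 were SUL2, 7 of the 8 sulfate reduction genes (all but MET8), MET2, MET17, STR2, STR3, MET6, MET13, all 4 permease genes, MET28 and MET32. LGL held the lowest group mean of 11 genes and LGC that of 7, while WTL held the lowest mean of none. The share of all genes was not computed for lowest means. The 5 genes highest in LGD (15.2%, close to the 17.4% of all genes) were SUL1, MET8, CYS4, SAM2 and SAH1.

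**Figure D1:**
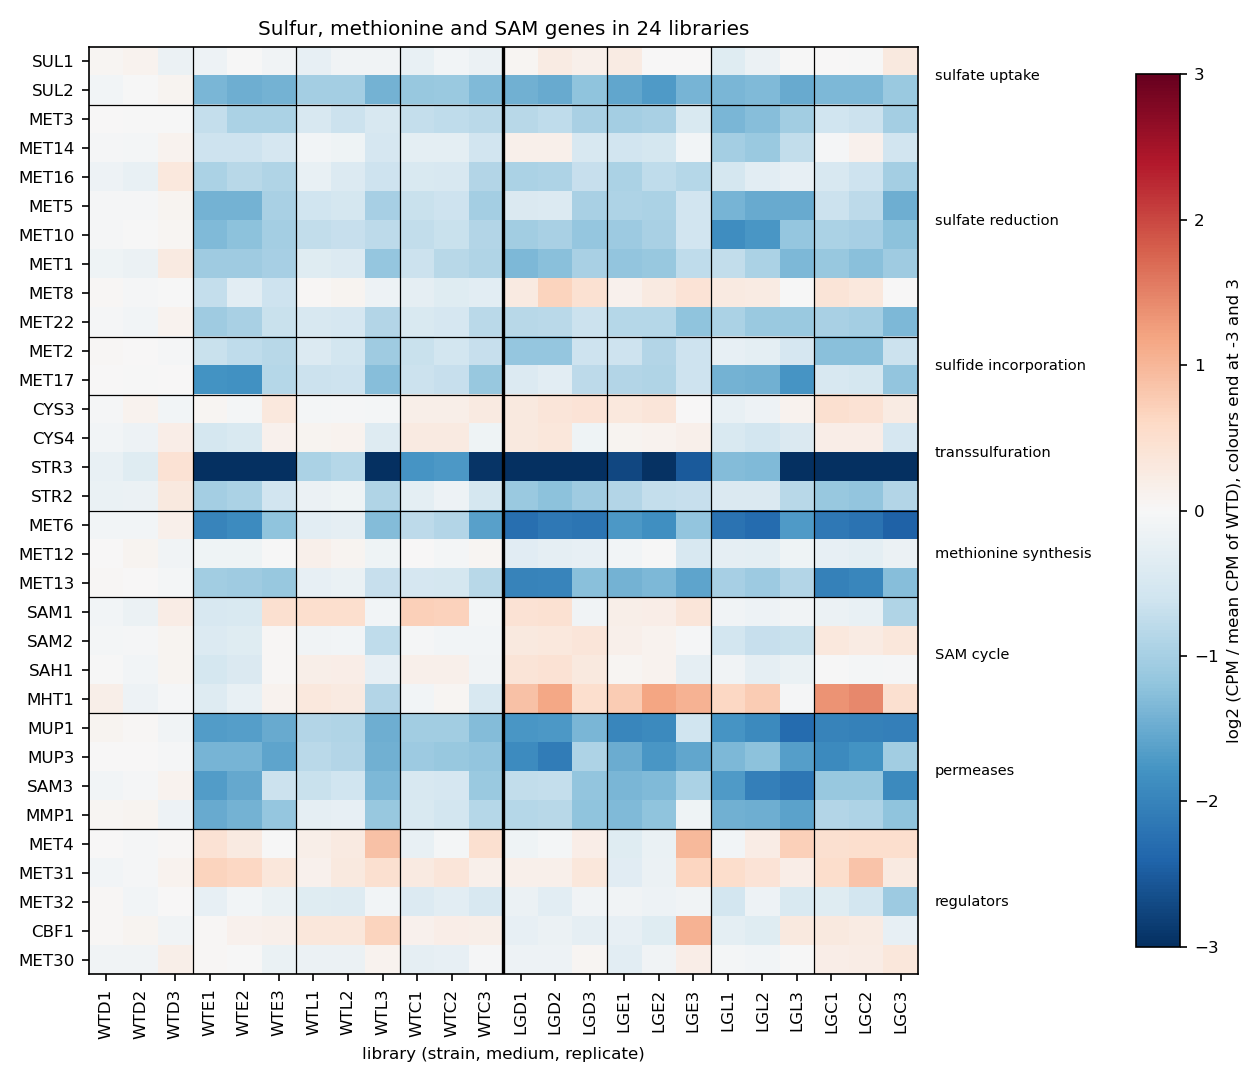
Level of 32 genes of the set (rows, grouped by role, MET28 left out for its low counts) in each of the 24 libraries (columns), as log2 of CPM over the mean CPM of WTD, blue for lower and red for higher. SUL2, STR3, MET6, MUP1 and MUP3 are blue outside WTD, and SAH1 and CYS3 stay pale.

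The mutant was compared with the control in plain YPD to see which steps of sulfur metabolism differ when Psd1 cannot mature. Of the 33 genes, 18 fell and 2 rose, where 36.8% of 6169 genes were called, 17.3% lower and 19.5% higher. The median log2 fold change was -0.60 over the 33 genes and 0.01 over all genes tested. In bulk RNA, fewer cells with a transcript and less of it per cell cannot be told apart. All 4 permease genes, all 3 methionine synthesis genes, both sulfide incorporation genes and 6 of 8 sulfate reduction genes fell, whereas 0 of 4 SAM cycle genes and 0 of 6 regulators did. With replicates 1 and 2 summed, 3 of the 33 genes were called (SUL2, STR3 and MET6), where 1.53% of genes were, and 15 of the 20 calls held in every fit that left out 1 library. The 5 that did not were those of MET5, MET8, MET17, MET12 and MHT1.

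STR3 (YGL184C, chromosome VII, 154615-156012) encodes the enzyme that turns cystathionine into homocysteine. It had 83.3, 75.9 and 131 CPM in WTD replicates 1, 2 and 3 and 8.54, 9.42 and 10.7 CPM in LGD. All LGD libraries lay far under all WTD libraries, a log2 fold change of -3.37 ± 0.24 (adjusted p 0.000805). STR2 (YJR130C), cystathionine gamma-synthase of the same branch from cysteine to homocysteine, had 102, 103 and 143 CPM in WTD and 53.3, 49.4 and 55.5 CPM in LGD. The groups did not overlap, and STR2 fell by 1.16 ± 0.15 on the log2 scale (adjusted p 0.00262). CYS3 and CYS4 act in the reverse branch, from homocysteine to cysteine. CYS3 had 719, 793 and 703 CPM in WTD and 899, 950.4 and 982 CPM in LGD, and CYS4 661, 626 and 807 and 852, 889.6 and 638 CPM. Neither was called, at 0.33 ± 0.12 (adjusted p 0.063) and 0.16 ± 0.17 (adjusted p 0.494), although the CYS3 groups did not overlap.

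MET6 (YER091C, chromosome V, 339864-342167), the methionine synthase that methylates homocysteine, had 591, 593 and 692 CPM in WTD and 130.4, 140.3 and 138 CPM in LGD. The mutant libraries were close together and all far under the control, a log2 fold change of -2.22 ± 0.11 (adjusted p 0.000531). MET13 (YGL125W, chromosome VII, 272520-274322), the methylenetetrahydrofolate reductase that supplies its methyl group, had 188, 183 and 175 CPM in WTD and 45.3, 46.1 and 76.6 CPM in LGD. Replicate 3 was the highest of the LGD libraries and still under every WTD library, and the fold change was -1.72 ± 0.21 (adjusted p 0.00226). MET12, its isozyme, changed by -0.31 ± 0.09 (adjusted p 0.035), a call that was lost in 4 of 6 leave-one-out fits, with an adjusted p of up to 0.137 without WTD replicate 2.

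Of the sulfate permeases, SUL2 (YLR092W, chromosome XII, 323544-326225) had 166, 173 and 186 CPM in WTD and 64.3, 61.4 and 75.3 CPM in LGD. All LGD libraries were under all WTD libraries, at -1.41 ± 0.11 (adjusted p 0.000849). SUL1, the other high-affinity sulfate permease, had 32.1, 33.4 and 27.6 and 32.5, 36.6 and 34.3 CPM, with overlapping groups and no call, at 0.13 ± 0.11 (adjusted p 0.387). Among the genes of sulfate reduction, MET10 (YFR030W, chromosome VI, 213312-216419), a sulfite reductase subunit, had 269, 276 and 289 CPM in WTD and 134, 141 and 125 CPM in LGD. The groups were well apart, at -1.08 ± 0.09 (adjusted p 0.00101). MET1, which makes the siroheme cofactor of sulfite reductase, changed by -1.21 ± 0.16 (adjusted p 0.00279), and MET3, the ATP sulfurylase that opens the pathway, by -0.87 ± 0.09 (adjusted p 0.00147). MET16, the reductase of phosphoadenylyl sulfate (PAPS), and MET22, the phosphatase that clears its adenosine bisphosphate by-product, changed by -0.87 ± 0.16 (adjusted p 0.00856) and -0.79 ± 0.10 (adjusted p 0.00262). MET5, the other sulfite reductase subunit, changed by -0.60 ± 0.16 (adjusted p 0.0261), but was not called in 3 of 6 leave-one-out fits, with an adjusted p of up to 0.0804 without WTD replicate 3.

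MET14 and MET8 were the sulfate reduction genes that were not called lower. MET14, the kinase of adenylyl sulfate (APS), had 83.2, 82.4 and 92.2 CPM in WTD and 95.2, 95.8 and 61.9 CPM in LGD, so replicates 1 and 2 of the mutant were above the control and replicate 3 under it, at -0.05 ± 0.18 (adjusted p 0.844) with no call. MET8, which completes siroheme, had 30.2, 28.7 and 28.97 and 35.3, 46.8 and 39.96 CPM. All mutant libraries were above the control and MET8 rose by 0.45 ± 0.12 (adjusted p 0.0266), a call that was lost in 4 of 6 leave-one-out fits, with an adjusted p of up to 0.0982 without LGD replicate 2. Of the genes that bring sulfide into homocysteine, MET2, the homoserine acetyltransferase, had 75.7, 74.2 and 72.7 CPM in WTD and 33.3, 33.2 and 48.3 CPM in LGD, at -0.98 ± 0.16 (adjusted p 0.0051). MET17 had 1081, 1059 and 1081 and 810.5, 860.3 and 619 CPM, without overlap, at -0.51 ± 0.15 (adjusted p 0.0382). Its call was lost in 5 of 6 leave-one-out fits, with an adjusted p of up to 0.117 without WTD replicate 1.

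The permeases fell as a group. MUP1 (YGR055W, chromosome VII, 599417-601141), the high-affinity methionine permease, had 648, 621 and 564 CPM in WTD and 181, 184 and 236 CPM in LGD, with no overlap and a fold change of -1.63 ± 0.14 (adjusted p 0.00101). MUP3 (YHL036W, chromosome VIII, 26241-27881), a low-affinity methionine permease, had 71.2, 70.9 and 69.3 and 19.02, 16.4 and 36.9 CPM. LGD replicate 3 was the highest of the mutant libraries, and the fold change was -1.57 ± 0.29 (adjusted p 0.00781). SAM3, which imports SAM, and MMP1, which imports S-methylmethionine, changed by -0.89 ± 0.16 (adjusted p 0.00676) and -0.98 ± 0.13 (adjusted p 0.00305).

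Of the SAM cycle genes, 1 of 4 was called, and it was higher. MHT1 (YLL062C, chromosome XII, 16639-17613), which uses S-methylmethionine to methylate homocysteine, had 13.03, 10.5 and 11.3 CPM in WTD and 21.3, 25.9 and 16.4 CPM in LGD. Every mutant library was above every control library, and MHT1 rose by 0.85 ± 0.19 (adjusted p 0.015), a call that was lost in 2 of 6 leave-one-out fits, with an adjusted p of up to 0.0638 without WTD replicate 2. MMP1, its neighbour across the shared 342 bases, had 113, 115 and 96.8 and 59.7, 60.5 and 46.98 CPM and fell. SAH1 had 1264, 1215 and 1367 CPM in WTD and 1679, 1734 and 1561 CPM in LGD, and SAM2 391, 399.8 and 429 and 499, 507 and 527 CPM. In both genes the groups did not overlap, at 0.35 ± 0.12 (adjusted p 0.0622) and 0.31 ± 0.10 (adjusted p 0.0506), without a call. SAM1 was at 0.27 ± 0.19 (adjusted p 0.301). Without LGD replicate 3, which left the close replicates 1 and 2 alone in LGD, 26 of the 33 genes were called, 20 lower and 6 higher. This was the highest count of the fits that left out 1 library, and the lowest was 15, without WTD replicate 2. The share of all genes called in these fits is not given here.

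None of the 6 regulators was called. MET4 had 46.6, 45.3 and 47.5 CPM in WTD and 42.2, 44.6 and 53.6 CPM in LGD, at -0.01 ± 0.11 (adjusted p 0.934). MET32 was at -0.22 ± 0.10 (adjusted p 0.117), CBF1 at -0.25 ± 0.09 (adjusted p 0.0709), MET30 at -0.11 ± 0.12 (adjusted p 0.5), MET31 at 0.19 ± 0.13 (adjusted p 0.306) and MET28, with its few reads, at -0.96 ± 0.67 (adjusted p 0.298). Without a call, a difference is not shown to be absent.

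**Figure D2:**
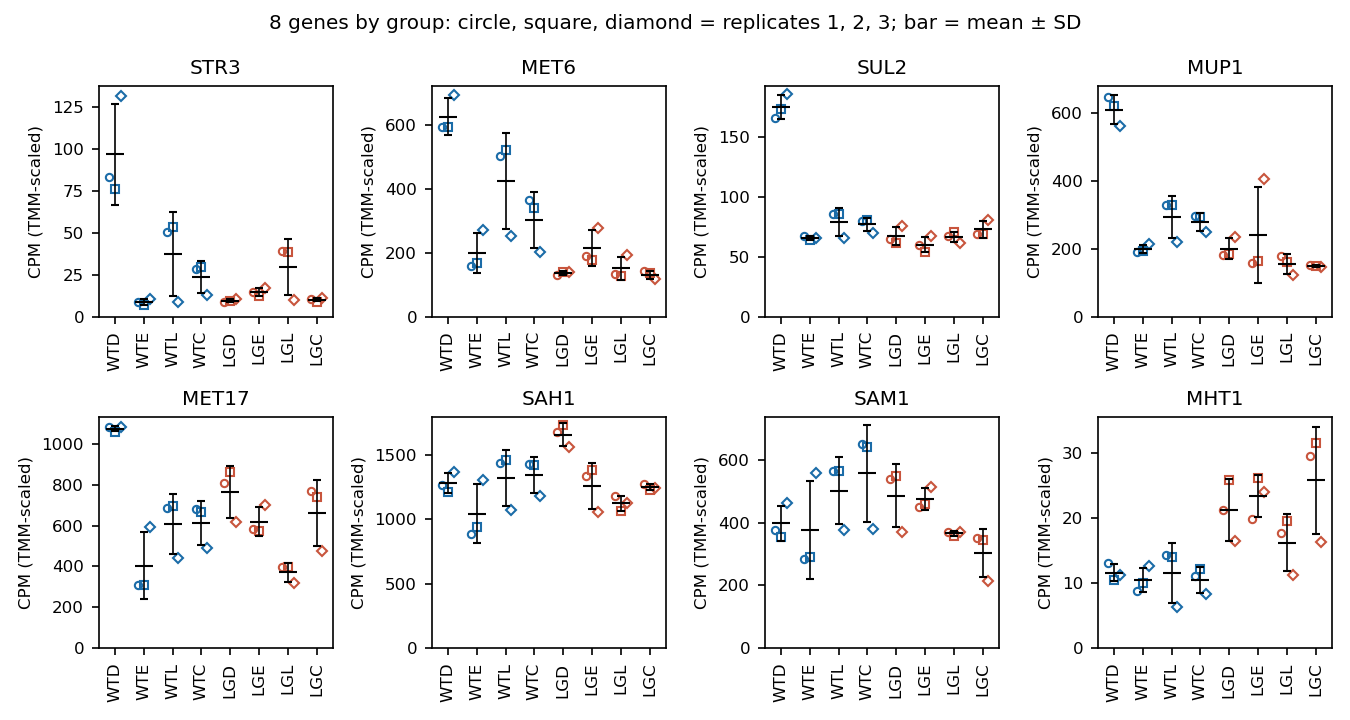
CPM of 8 genes (panels) in the 8 groups, with control libraries in blue, mutant libraries in red and replicates 1, 2 and 3 as circles, squares and diamonds, bars giving mean ± SD (n = 3). STR3, MET6, SUL2 and MUP1 are highest in WTD, all libraries of LGD, LGE and LGC are higher in MHT1 than every control library, and replicate 3 stands apart in several groups.

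Ethanolamine, from which yeast can make PE without Psd1, was added to the control strain, which has a working enzyme. There, 19 of the 33 genes fell and 1 rose (MET31), where 22.6% of 6170 genes were called, 11% lower and 11.6% higher. The median log2 fold change was -0.81 over the 33 genes and 0.03 over all genes. All 8 sulfate reduction genes, both sulfide incorporation genes and all 4 permease genes fell, and 0 of 4 SAM cycle genes. With replicates 1 and 2 summed, 13 were called, where 4.65% of genes were, and 17 of the 20 calls held in every fit that left out 1 library, the exceptions being MET8, SAM3 and MET31.

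STR3 had 8.89, 6.85 and 10.2 CPM in WTE, every library far under those of WTD given above, at -3.46 ± 0.24 (adjusted p 0.000214). MET6 had 159, 169 and 271 CPM, with replicate 3 the highest, at -1.63 ± 0.21 (adjusted p 0.00178), and MUP1 191, 195 and 214 CPM, at -1.59 ± 0.12 (adjusted p 0.000223). SUL2 had 67.3, 63.4 and 65.8 CPM, in a narrow range, at -1.40 ± 0.08 (adjusted p 0.000113). MUP3 changed by -1.43 ± 0.09 (adjusted p 0.000113) and MET17 by -1.39 ± 0.26 (adjusted p 0.00792). For MET17 the 3 libraries were 311, 306 and 594 CPM, so replicate 3 lay between the other WTE libraries and WTD. MET14, without a call between the strains in plain YPD, fell here, with 56.2, 55.5 and 60.3 CPM and -0.57 ± 0.08 (adjusted p 0.00277). MET8 also fell, at -0.53 ± 0.12 (adjusted p 0.0192), a call lost in 3 of 6 leave-one-out fits, with an adjusted p of up to 0.0786 without WTD replicate 1. The rise of MET31, from 7.36, 7.59 and 8.33 to 12.3, 11.9 and 9.83 CPM, was 0.56 ± 0.16 (adjusted p 0.0341) and was lost in 5 of 6 leave-one-out fits, with an adjusted p of up to 0.119 without WTD replicate 1.

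Choline, which feeds phosphatidylcholine synthesis without methylation of PE, gave 18 lower genes of the 33 in the control strain and none higher, where 19.1% of 6132 genes were called, 9.05% lower. The median log2 fold change was -0.56 over the 33 genes and 0.01 over all genes. STR3 had 28.6, 29.5 and 12.7 CPM in WTC, all under WTD and lowest in replicate 3, at -2.02 ± 0.34 (adjusted p 0.00838). SUL2 had 79.9, 80.3 and 70.04 CPM, at -1.16 ± 0.09 (adjusted p 0.00134), MUP3 32.9, 32.2 and 30.9 CPM, at -1.12 ± 0.07 (adjusted p 0.000612), and MUP1 296, 295 and 249 CPM, at -1.10 ± 0.11 (adjusted p 0.00186). MET6 had 363, 340.2 and 202 CPM, at -1.03 ± 0.21 (adjusted p 0.0167). MET17 changed by -0.78 ± 0.14 (adjusted p 0.0106). MET6 lost its call in 2 of 6 leave-one-out fits, with an adjusted p of up to 0.0585 without WTD replicate 1, and MET17 in 1 of 6 leave-one-out fits, with an adjusted p of up to 0.0523 without WTD replicate 1. Of the 18 calls, 10 held in every fit that left out 1 library, and 10 genes were called without WTD replicate 1 and 11 without WTD replicate 2. With replicates 1 and 2 summed 2 genes were called (SUL2 and MUP3), where 0.225% of genes were. MET32, the called regulator, changed by -0.38 ± 0.09 (adjusted p 0.0229), a call lost in 4 of 6 leave-one-out fits, with an adjusted p of up to 0.0924 without WTD replicate 1.

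In the lyso-PE medium, which also holds detergent, 10 of the 33 genes fell in the control strain and none rose, where 12.7% of 6147 genes were called, 5.92% lower. The median log2 fold change was -0.36 over the 33 genes and 0.02 over all genes. SUL2 had 85.7, 85.6 and 65.2 CPM in WTL, at -1.14 ± 0.12 (adjusted p 0.00535), and MET10 167, 173 and 162 CPM, at -0.72 ± 0.08 (adjusted p 0.00567). These calls held in every fit that left out 1 library. The calls of MUP1 (-1.05 ± 0.17, adjusted p 0.0127), MUP3 (-1.01 ± 0.16, adjusted p 0.012), SAM3 (-0.83 ± 0.19, adjusted p 0.0369), MET17 (-0.82 ± 0.18, adjusted p 0.032), MET3, MET5, MET22 and MET2 did not. STR3 had 50.2, 53.6 and 8.70 CPM, replicate 3 far under the others, at -1.37 ± 0.59 (adjusted p 0.17) and without a call. MET6 had 502, 519.7 and 252 CPM, with the same split, at -0.55 ± 0.26 (adjusted p 0.204). The number of the 33 genes called was 2 without WTD replicate 1 or 2, 5 without WTD replicate 3, 6 without WTL replicate 1, 5 without WTL replicate 2 and 16 without WTL replicate 3, and it was 0 with replicates 1 and 2 summed, where 0% of genes were called. The 3 media in the control, and the mutant in plain YPD, were each compared with the same WTD libraries. Their shared directions are therefore not independent of one another.

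In the mutant, ethanolamine and choline gave no called gene of the set in the main test, which left the replicate number out. For LGE against LGD, edgeR called 0 of the 33 genes, where 0.225% of 6213 genes were called, with 3 genes at an unadjusted p under 0.05 and 0 calls by DESeq2. The 3 were STR3, with 14.5, 12.5 and 16.9 CPM in LGE against 8.54, 9.42 and 10.7 in LGD, STR2 and MET6, at log2 differences of 0.64 ± 0.19 (adjusted p 0.342), 0.40 ± 0.12 (adjusted p 0.342) and 0.68 ± 0.20 (adjusted p 0.342). The STR3 libraries of LGE were all above those of LGD and all far under those of WTD. For LGC against LGD, edgeR called 0 of 32 genes, where 0% of 6198 genes were called, with 6 genes at an unadjusted p under 0.05 and 2 calls by DESeq2. STR3 had 10.5, 8.96 and 10.8 CPM and MET6 141, 135 and 117 CPM in LGC, overlapping LGD, at 0.09 ± 0.15 (adjusted p 0.775) and -0.05 ± 0.11 (adjusted p 0.825). With the replicate number as a block, 7 of the 32 genes were called in LGC against LGD, 2 higher and 5 lower, where 24.6% of genes were, 11% higher and 13.6% lower. Without LGD replicate 3 there was 1 call, and 0 with replicates 1 and 2 summed in either comparison.

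In the lyso-PE medium, 6 of the 33 genes fell and 1 rose in the mutant, where 13.3% of 6202 genes were called, 7.43% lower and 5.82% higher. The median log2 fold change was -0.29 over the 33 genes and 0.01 over all genes. SAM3 had 409.6, 414 and 301 CPM in LGD and 209.7, 164 and 152 CPM in LGL, at -1.10 ± 0.19 (adjusted p 0.0222). MET17 had 399, 397 and 316 CPM in LGL, all libraries under those of LGD, at -1.04 ± 0.19 (adjusted p 0.0232). SAM2 had 276, 253 and 256 CPM, about the same in its 3 libraries, at -0.97 ± 0.13 (adjusted p 0.0149). MET14, MET5 and MMP1 changed by -0.92 ± 0.20 (adjusted p 0.033), -0.89 ± 0.17 (adjusted p 0.0265) and -0.55 ± 0.14 (adjusted p 0.0435). STR2 rose, with 86.4, 86.1 and 64.9 CPM, by 0.59 ± 0.15 (adjusted p 0.0445). STR3, with 39.2, 38.7 and 10.1 CPM, was higher than LGD in replicates 1 and 2 and within its range in replicate 3, and was not called, at 1.62 ± 0.47 (adjusted p 0.06). None of the 33 genes was called without LGD replicate 1 or 2 or without LGL replicate 1 or 2, by edgeR's test, while 15 were without LGD replicate 3 and 11 without LGL replicate 3. The main test had 17 of them at an unadjusted p under 0.05 and DESeq2 called 14, and 0 were called with replicates 1 and 2 summed. The mutant's 3 comparisons share the LGD libraries.

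**Figure D3:**
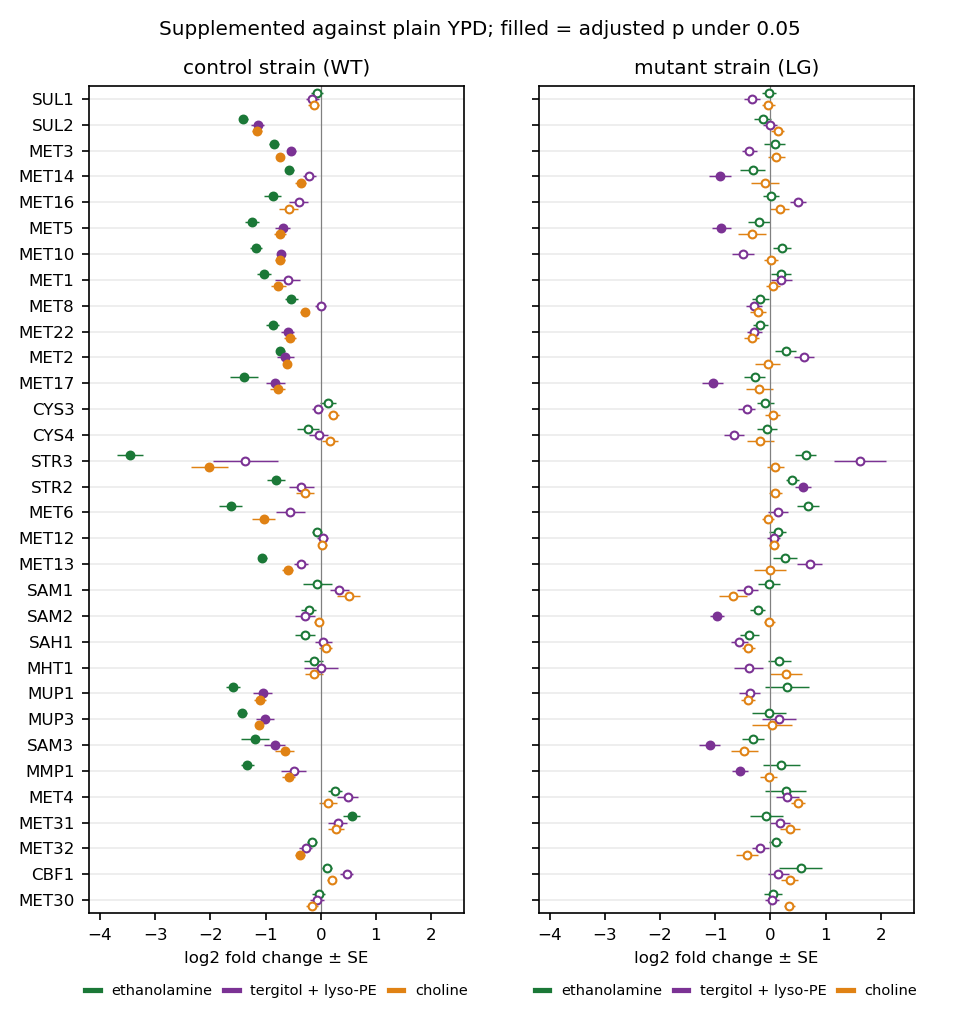
Log2 fold change ± SE of 32 genes (rows) in each supplemented medium against plain YPD, in the control strain (left) and the mutant (right), with ethanolamine in green, tergitol with lyso-PE in purple and choline in orange, and filled points for an adjusted p under 0.05. In the control most filled points lie under 0, and in the mutant filled points are found for the lyso-PE medium alone.

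The strains were also compared within each supplemented medium. In ethanolamine, edgeR called 0 of 32 genes, where 0.836% of 6220 genes were called, with 5 genes at an unadjusted p under 0.05 and 3 calls by DESeq2. The median log2 difference was 0.10 over the 32 genes and 0.01 over all genes. MHT1 had 8.84, 9.98 and 12.6 CPM in WTE and 19.8, 26.2 and 24.01 CPM in LGE, without overlap, at 1.14 ± 0.20 (adjusted p 0.0571). MET8 had 17.9, 23.3 and 19.05 and 32.2, 35.2 and 38.96 CPM, also without overlap, at 0.80 ± 0.16 (adjusted p 0.067). MET6, with 159, 169 and 271 and 189.8, 175 and 277 CPM, overlapped between the strains, at 0.08 ± 0.26 (adjusted p 0.9). LGE replicate 3 stood apart for several genes, such as MUP1 with 157, 163 and 405 CPM, and without it 5 of the 32 genes were called, 2 higher and 3 lower. That fit left the close replicates 1 and 2 alone in LGE. Each of the other fits without 1 library called 0. The share of all genes called in these fits is not given here.

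In choline, 9 of 32 genes were called, 6 lower and 3 higher in the mutant, where 16.6% of 6175 genes were called, 6.93% lower and 9.7% higher. The median log2 difference was -0.18 over the 32 genes and 0.02 over all genes. MUP1 had 296, 295 and 249 CPM in WTC and 153, 149.9 and 148 CPM in LGC, without overlap, at -0.93 ± 0.11 (adjusted p 0.00454), the 1 call that held in every fit that left out 1 library. MET6 had 141, 135 and 117 CPM in LGC, under all WTC libraries, at -1.23 ± 0.23 (adjusted p 0.0152), and STR3 10.5, 8.96 and 10.8 CPM, at -1.25 ± 0.32 (adjusted p 0.0413). MET13, STR2 and MET22 changed by -1.12 ± 0.22 (adjusted p 0.0191), -0.77 ± 0.14 (adjusted p 0.0146) and -0.55 ± 0.15 (adjusted p 0.0451). MHT1 was higher, with 11.04, 12.1 and 8.30 CPM in WTC and 29.6, 31.5 and 16.3 CPM in LGC, at 1.27 ± 0.28 (adjusted p 0.0257), as were MET8 (0.54 ± 0.13, adjusted p 0.0319) and MET30 (0.41 ± 0.11, adjusted p 0.0429). The SAM synthetase genes gave values of opposite sign. SAM1 had 651, 642 and 380.5 CPM in WTC and 353, 344 and 214 CPM in LGC, at -0.90 ± 0.28 (adjusted p 0.0648), and SAM2 397, 383 and 386 and 508, 484 and 519 CPM, at 0.35 ± 0.11 (adjusted p 0.0699), neither of them called. Deviations of same-numbered libraries of WTC and LGC correlated weakly across genes, at 0.108 to 0.182. In the fit with a block for the replicate number SAM1 and SAM2 were called, at adjusted p 0.0101 and 0.0497, and STR3 was not, at 0.0714. That fit also gained MET10 (0.0481), SAM3 (0.0128) and MMP1 (0.0313), for 13 calls, 4 higher and 9 lower, where 20.9% of genes were called, 9.96% higher and 10.9% lower. The number of genes called was 1 without WTC replicate 1, WTC replicate 2, LGC replicate 1 or LGC replicate 2, and 15 without LGC replicate 3. It was 0 with replicates 1 and 2 summed, where 0% of genes were called, and 14 by DESeq2.

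In the lyso-PE medium, edgeR called 0 of the 33 genes between the strains, where 1.52% of 6169 genes were called, with 14 genes at an unadjusted p under 0.05 and 10 calls by DESeq2, all lower. The median log2 difference was -0.34 over the 33 genes and 0.00 over all genes. MET6 had 502, 519.7 and 252 CPM in WTL and 134, 126 and 192 CPM in LGL. The groups did not overlap, but WTL replicate 3 was near the mutant, and the difference was -1.48 ± 0.31 (adjusted p 0.0588). SAM3, with 431, 449 and 270.3 and 209.7, 164 and 152 CPM, was at -1.11 ± 0.23 (adjusted p 0.0575), and MMP1 at -1.0 ± 0.23 (adjusted p 0.0752). SUL2 and STR3 overlapped between the strains, at -0.23 ± 0.14 (adjusted p 0.364) and -0.34 ± 0.71 (adjusted p 0.817). With the replicate number as a block, 12 of the 33 genes were called, all lower, where 20.1% of genes were called and 8.01% lower. They included MET6, SAM3 and MMP1, at adjusted p 0.0343, 0.00621 and 0.0163. Summing replicates 1 and 2 left 0 of the 33 genes called, where 0% of genes were, and MET6 was at adjusted p 0.692. In fits without 1 library, 12 were called without WTL replicate 3 and 8 without LGL replicate 3, all lower. Without replicate 1 or 2 of either group, 0 were called. The share of all genes called in these fits is not given here.

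**Figure D4:**
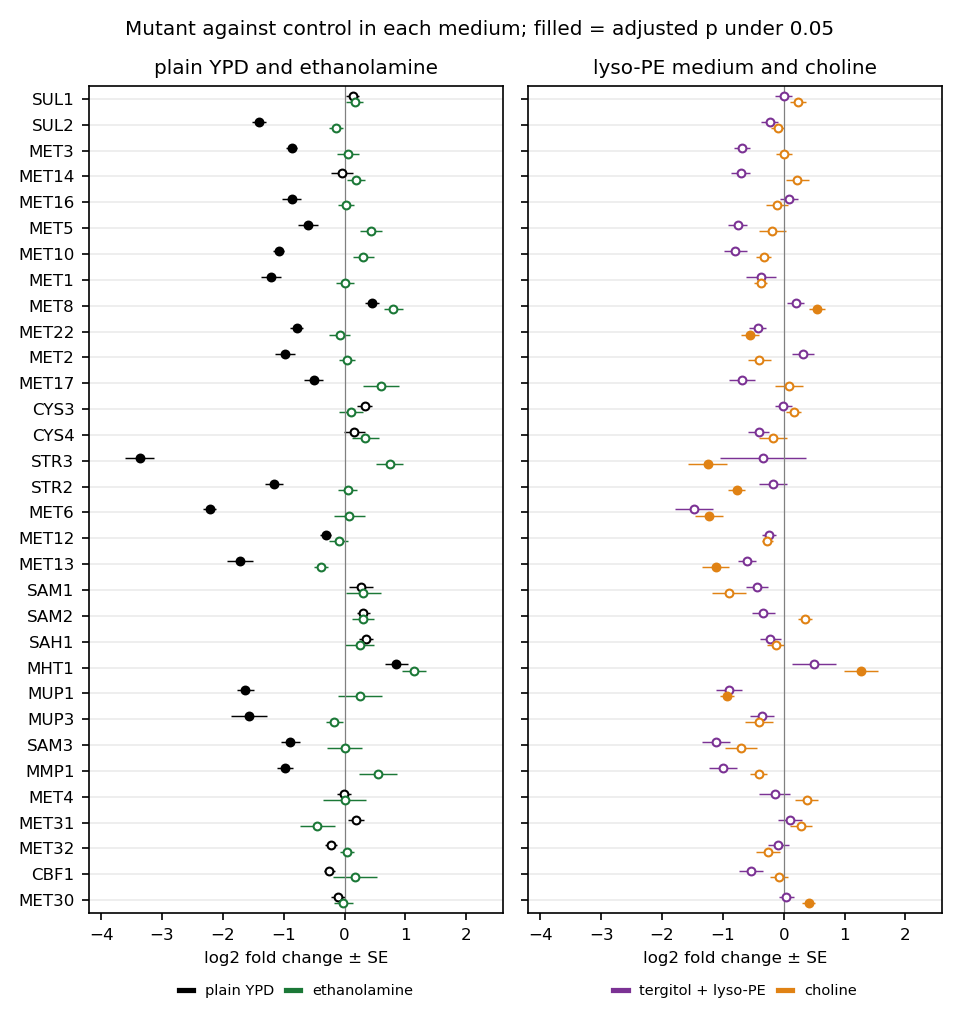
Log2 fold change ± SE of the mutant against the control for 32 genes (rows), in plain YPD and ethanolamine (left) and in the lyso-PE medium and choline (right), with filled points for an adjusted p under 0.05. In plain YPD 18 genes are filled to the left of 0, in ethanolamine none is filled, and MHT1 lies to the right of 0 in all 4 media.

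Whether the change with a supplement differed between the strains was tested as an interaction, the log2 fold change in the mutant minus that in the control. For ethanolamine, 14 of the 33 genes were called, all with a more positive change in the mutant, where 5.3% of 6281 genes were called, 2.8% positive. The median was 0.89 over the 33 genes and 0.01 over all genes. STR3 had the largest value, 4.10 ± 0.32 (adjusted p 0.000125), with a log2 difference of -3.46 ± 0.24 in the control and 0.64 ± 0.19, not called, in the mutant. MET6 followed with 2.30 ± 0.31 (adjusted p 0.00394), and MUP1 with 1.89 ± 0.43 (adjusted p 0.0288). The other 11 were SUL2, MET3, MET16, MET5, MET10, MET1, MET2, STR2, MET13, MUP3 and MMP1. The calls of SUL2, MET10, MET1, STR3, STR2, MET6 and MET13 held in every fit that left out 1 library, and those of MUP1 and the other 6 did not. The number called was 7 without LGD replicate 1 or 2, 8 without WTD replicate 1, WTD replicate 3 or WTE replicate 2, and 9 without WTD replicate 2 or WTE replicate 1. With replicates 1 and 2 summed, 1 gene was called, STR3, where 0.0314% of genes were.

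For the lyso-PE medium, 7 of the 33 genes were called, all positive (SUL2, MET16, MET2, STR3, STR2, MET13 and MUP3), where 25.2% of 6268 genes were called, 12.2% positive, so the 7 calls were close to the share of all genes called in either direction. The medians were 0.03 and -0.01. DESeq2's Wald test called 8 of the 33 genes positive and 5 negative. STR3 was at 2.99 ± 0.84 (adjusted p 0.0237), MET2 at 1.26 ± 0.26 (adjusted p 0.00612) and SUL2 at 1.14 ± 0.18 (adjusted p 0.0027), and of these 3 the call of STR3 was lost in 5 of 12 leave-one-out fits, with an adjusted p of up to 0.0603 without LGL replicate 2. The number called was 4 without WTD replicate 3 or without replicate 1 or 2 of LGD or LGL, 11 without WTL replicate 3, 12 without LGL replicate 3 and 13 without LGD replicate 3. With replicates 1 and 2 summed it was 0, where 0% of genes were called. For choline, 4 of the 33 genes were called, where 0.863% of 6254 genes were, 0.448% positive. They were STR3 (2.12 ± 0.42, adjusted p 0.0456), SUL2 (1.31 ± 0.15, adjusted p 0.00766), MET3 (0.87 ± 0.16, adjusted p 0.0358) and MET10 (0.76 ± 0.14, adjusted p 0.0358), all positive, with medians of 0.40 over the 33 genes and 0.04 over all genes. In choline the call of SUL2 alone held in every fit that left out 1 library. The number called was 1 without replicate 1 or 2 of any of the 4 groups or without WTD replicate 3, and 14 without LGD replicate 3. With replicates 1 and 2 summed 0 were called, where 0% of genes were. DESeq2's Wald test called 8 of the 33 genes positive and 2 negative for choline. The 3 interactions share the WTD and LGD libraries.

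The transcripts of 37 other genes that feed or use this metabolism were read in the same fits, from 8 lists written with earlier results of these data known. In LGD against WTD, 9 of the 37 fell and 4 rose, where 36.8% of all genes were called, so their 35.1% was close to the share of all genes. HOM2, the aspartate semialdehyde dehydrogenase on the way to homoserine, had 1413, 1395 and 1534 CPM in WTD and 526, 530.1 and 537 CPM in LGD, at -1.47 ± 0.11 (adjusted p 0.000849). It was also lower in the mutant in choline, with 1289.8, 1230.2 and 1001 and 436, 429.6 and 430.3 CPM, at -1.47 ± 0.15 (adjusted p 0.00313). There, 6 of the 37 genes were called, all lower (16.2%, where 16.6% of all genes were called and 6.93% lower), and the calls of the 5 others were each lost in 4 of the fits without 1 library. HOM3, the aspartate kinase, changed by -0.55 ± 0.12 (adjusted p 0.0137) in plain YPD. Of the 7 sulfur scavenging genes, the cysteine transporter gene YCT1 (-1.17 ± 0.10, adjusted p 0.00101), the glutathione transporter gene OPT1 (-0.94 ± 0.14, adjusted p 0.00396) and SAM4 (-0.61 ± 0.15, adjusted p 0.0189), a SAM-homocysteine methyltransferase, fell in plain YPD. GSH1, which opens glutathione synthesis, changed by -0.66 ± 0.11 (adjusted p 0.0055). The calls of HOM2, YCT1, OPT1 and GSH1 held in every fit that left out 1 library, and those of HOM3 and SAM4 did not. Of the 37, YCT1 alone stayed called in LGD against WTD with replicates 1 and 2 summed (adjusted p 0.0483) and in WTE against WTD, HOM2, OPT1 and GSH1 were at 0.0538, 0.0746 and 0.104 in the former, and 0 of the 37 were called in each of the other 11 comparisons and interactions.

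The methylthioadenosine salvage and polyamine list, which recycles the methionine sulfur that polyamine synthesis takes from SAM, had 3 of 8 genes higher in LGD than in WTD and none lower, where 19.5% of all genes were higher and 17.3% lower. MEU1, the methylthioadenosine phosphorylase, was at 0.96 ± 0.20 (adjusted p 0.0127), SPE2, SAM decarboxylase, at 0.67 ± 0.19 (adjusted p 0.03), and MDE1, a dehydratase of the salvage route, at 0.51 ± 0.13 (adjusted p 0.0236). CHO2, which adds the first methyl group to PE, had 369, 359 and 317 CPM in WTD and 461, 487 and 544 CPM in LGD, at 0.49 ± 0.12 (adjusted p 0.0195). OPI3, which adds the later ones, had 327, 309 and 328 and 295, 283 and 475 CPM, at 0.10 ± 0.20 (adjusted p 0.719), with LGD replicate 3 far above the others. The calls of MEU1, SPE2, MDE1 and CHO2 were each lost in at least 2 of the fits without 1 library, with an adjusted p of up to 0.0902. ADE3, MXR1 and SKP1 also fell, at -0.68 ± 0.19 (adjusted p 0.0305), -0.40 ± 0.11 (adjusted p 0.0317) and -0.56 ± 0.16 (adjusted p 0.0332), and lost their calls in at least 4 of these fits.

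In the control strain, ethanolamine gave 7 lower and 3 higher of the 37 genes, where 22.6% of genes were called. YCT1 changed by -0.79 ± 0.09 (adjusted p 0.000905), OPT1 by -0.77 ± 0.11 (adjusted p 0.00288) and OPI3 by -0.69 ± 0.10 (adjusted p 0.00266), from the WTD values above to 186, 189.6 and 213 CPM for OPI3. Choline gave 2 lower, YCT1 (-0.55 ± 0.09, adjusted p 0.00873) and OPI3 (-0.64 ± 0.09, adjusted p 0.00421), and 2 higher, MEU1 (0.55 ± 0.11, adjusted p 0.0153) and SHM2 (0.46 ± 0.10, adjusted p 0.0201), a serine hydroxymethyltransferase of folate-bound carbon supply. CHO2 was not called in either, at 0.32 ± 0.11 (adjusted p 0.0771) and 0.20 ± 0.12 (adjusted p 0.264), but was in ethanolamine with the replicate number as a block, at adjusted p 0.0397, and was not with replicates 1 and 2 summed, at 0.393. The calls of MEU1 and SHM2 in choline were each lost in at least 3 of the fits without 1 library. The 4 calls in choline were 10.8% of the 37 genes, where 19.1% of all genes were called. The lyso-PE medium also gave 4 calls in the control (10.8%, where 12.7% of all genes were called). Of them, 3 were lower, from the sulfur scavenging list, and 1 was higher, from the methylthioadenosine salvage and polyamine list. In the mutant, CHO2 fell in the lyso-PE medium, where 3 of the 37 genes were lower and 2 higher (13.5%, against 13.3% of all genes called), with 239, 229 and 267 CPM, at -1.02 ± 0.15 (adjusted p 0.0159), lost in 4 of 6 leave-one-out fits, with an adjusted p of up to 0.114 without LGL replicate 2. Its interaction in that medium was -0.88 ± 0.18 (adjusted p 0.00578), 1 of 6 negative and 4 positive calls among the 37 genes (27%, against 25.2% of all genes). In the ethanolamine interaction YCT1 (1.2 ± 0.17, adjusted p 0.00442), HOM2 (1.07 ± 0.27, adjusted p 0.0415) and GSH1 (0.82 ± 0.17, adjusted p 0.0176) were called, of which YCT1 alone held in every fit without 1 library. These 3 were 8.11% of the 37 genes, where 5.3% of all genes were called. In the remaining pairwise comparisons, edgeR called 0 of the 37 genes in LGE against WTE, where 2 had an unadjusted p under 0.05 and DESeq2 called 0, in LGL against WTL, where 10 had an unadjusted p under 0.05 and DESeq2 called 5, in LGE against LGD, where 3 had an unadjusted p under 0.05 and DESeq2 called 0 and in LGC against LGD, where 6 had an unadjusted p under 0.05 and DESeq2 called 2. With the replicate number as a block, 9 of the 37 were called in LGL against WTL (24.3%, against 20.1% of all genes) and 13 in LGC against LGD (35.1%, against 24.6%), and 0 in either with replicates 1 and 2 summed.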

How the data were processed

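Total RNA of 24 samples was taken by hot phenol extraction and made into libraries by Illumina protocols, per the labels' protocols. The submitters' processing notes name STAR 2.5, HTSeq 0.6.1, DESeq2 and CASAVA without roles. The genome build, the annotation and the use of strand are not given in the sources used here. Each of the 7 deposited tables compares a group with plain YPD or LGD with WTD. They hold whole-number read counts per gene, per the file headers. They also hold a signal, which is the deposited counts divided by a size factor of each table, and FPKM values from the authors. The authors' log2 fold changes and p-values stand in the same deposited tables. The counts alone were used here, with gene lengths from the deposited tables for CPM per kb. Counts of a library that several tables hold were identical (0 differences), so the tables were joined.

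Comparisons were fitted on all genes with edgeR 4.0.16 (R 4.3.3) by its quasi-likelihood F test, with TMM scaling and filterByExpr, on the 6 libraries of a pair of groups or the 12 of an interaction. P-values were adjusted by the Benjamini-Hochberg method over all genes tested, and the SE is the size of the log2 fold change over the square root of F. DESeq2 1.42.0 was an alternative, as were other scalings, no filter, 1 fit of all 24 libraries, the replicate number as a block, summing replicates 1 and 2, and leaving out each library. The procedure was tested on simulated data with independent replicates and the same dispersion for every gene. Those data do not hold the closeness of replicates 1 and 2 seen here. The labels number the replicates in every group but do not say what a number shares. The correlation of deviations of same-numbered libraries ran from -0.474 to 0.609 over the 10 pairwise comparisons. All 3 correlations were over 0.1 in WTE against WTD, LGL against WTL, LGC against WTC and LGC against LGD. Replicates 1 and 2 are close in every group, so the 3 correlations of a comparison are not independent of one another. They cannot show that a number marks a shared batch. The main fits had no block in any comparison, and the block was an alternative.

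The members and the lists of related genes were chosen with earlier results of these data known. Named were all called members by count, values per library for up to 6 with the largest changes and 1 of each role, at most 3 called related genes of each list and comparison, CHO2, OPI3 and PSD1. Members shown beside these were chosen after their values were seen. Start codons and upstream windows of 500 bases came from the RefSeq R64 genome, in place of a promoter table. All 33 members, and 5890 of 5924 genes matched by name, had the same coordinates there as in the deposited tables.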

Additional observations from a re-analysis of the deposited data

Results flagged for a closer look

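In 25 cases the change of a gene with a supplement differed between the strains, by edgeR's test of the interaction with an adjusted p under 0.05. The values are the log2 fold change against plain YPD in the mutant minus that in the control, and every one was positive in that test. For ethanolamine they were SUL2 1.26, MET3 0.93, MET16 0.89, MET5 1.04, MET10 1.39, MET1 1.22, MET2 1.01, STR3 4.10, STR2 1.21, MET6 2.30, MET13 1.33, MUP1 1.89, MUP3 1.40 and MMP1 1.53. For the lyso-PE medium they were SUL2 1.14, MET16 0.91, MET2 1.26, STR3 2.99, STR2 0.95, MET13 1.08 and MUP3 1.17. For choline they were SUL2 1.31, MET3 0.87, MET10 0.76 and STR3 2.12. SUL2 and STR3 are in all 3 lists, which share the WTD and LGD libraries. STR3 held its call in every fit without 1 library for ethanolamine, and not for the lyso-PE medium or choline. Of all genes, 5.3% were called for ethanolamine, 25.2% for the lyso-PE medium and 0.863% for choline. The 7 calls of the lyso-PE medium were close to that share. For that medium DESeq2's Wald test called 8 genes of the 33 positive and 5 negative, and upper-quartile scaling gave 6 and 4. For choline DESeq2's test called 8 positive and 2 negative.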

How the results depend on the processing

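Called values of members and of PSD1 together numbered 112, and none changed sign under the alternatives run. Of them, 112 stayed called with DESeq2's size factors, 112 by DESeq2's Wald test, 111 with no filter and 110 with upper-quartile scaling. In 1 fit of all 24 libraries 88 stayed called, with the replicate number as a block 67, and with replicates 1 and 2 summed 19. Over the fits that each left out 1 library, 564 of 822 called values stayed called. With DESeq2's size factors 1 of 264 group means moved by more than its SD. The number of members called moved by over 1.5 times, for a cause that was not tested, under the following 4 settings and under the block. Upper-quartile scaling gave 1 in LGE against WTE and 3 in LGL against WTL. DESeq2's Wald test gave 3 in LGE against WTE, 10 in LGL against WTL, 14 in LGC against WTC, 14 in LGL against LGD, 2 in LGC against LGD, 13 in the lyso-PE interaction and 10 in the choline interaction. The fit of all 24 libraries gave 2 in LGE against WTE, 9 in LGL against WTL, 6 in WTL against WTD, 8 in WTC against WTD, 15 in LGL against LGD and 2 in the choline interaction. Summing replicates 1 and 2 gave 3 in LGD against WTD, 0 in LGC against WTC, 13 in WTE against WTD, 0 in WTL against WTD, 2 in WTC against WTD, 0 in LGL against LGD, 1 in the ethanolamine interaction, 0 in the lyso-PE interaction and 0 in the choline interaction, fits that have 1 library fewer in each group. Leaving out 1 library, whether or not the count moved that far, gave 15 to 26 in LGD against WTD, 0 to 5 in LGE against WTE, 0 to 12 in LGL against WTL, 1 to 15 in LGC against WTC, 18 to 25 in WTE against WTD, 2 to 16 in WTL against WTD, 10 to 19 in WTC against WTD, 0 to 0 in LGE against LGD, 0 to 15 in LGL against LGD, 0 to 1 in LGC against LGD, 7 to 16 in the ethanolamine interaction, 4 to 13 in the lyso-PE interaction and 1 to 14 in the choline interaction.

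With the replicate number as a block the number called was 12 in LGL against WTL, 0 in WTL against WTD, 4 in WTC against WTD, 0 in LGL against LGD, 7 in LGC against LGD, 9 in the ethanolamine interaction and 7 in the choline interaction. Of these, LGL against WTL and LGC against LGD had all correlations of same-numbered libraries over 0.1. So did WTE against WTD and LGC against WTC, where the count stayed within 1.5 times. These correlations do not show that libraries were paired, and what a number shares is not given for any comparison.

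The number of libraries, 3 a group with replicates 1 and 2 close together, limits the precision, at 16044470 counts or more a library. MET28, at 1 to 29 reads a library, limits what its values show.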
